A study of Mus musculus with 6 samples.

Results

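The HIN-200 genes, also called PYHIN genes, are a tandemly duplicated family of interferon-inducible genes on mouse chromosome 1. The 7 members described here, Ifi203, Ifi206, Ifi208, Ifi209, Ifi213, Ifi214 and Mndal, were taken by symbol from the 55487 Ensembl gene identifiers in the data, and all 7 matched. They were followed in naive CD4+ T cells taken directly, without treatment, from the spleen (3 libraries) or the mesenteric lymph node (mLN, 3 libraries) of wild-type mice of strain C57BL6/J. Both groups share genotype, strain and lack of treatment, and by the labels differ in the organ alone. Polyadenylated RNA was sequenced from directional libraries. The labels give neither age nor sex, and they do not say that each replicate is a different mouse. The p-values below therefore reflect variation among libraries that could be technical.

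Proteins of this family typically carry an N-terminal pyrin domain, through which proteins of the inflammasome class associate, and a C-terminal HIN domain, which binds DNA. Some members sense DNA in the cytosol or nucleus and others restrain growth or transcription, and the genes respond to type I and type II interferon. In the mouse the family has expanded far beyond its human counterpart, and its members differ in which of the domains they keep. Several are transcribed in resting lymphocytes, without infection.

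The expected counts, RSEM's estimates of reads per gene, summed to between 13205499 (mLN replicate 2) and 20054205 (mLN replicate 3) per library, and 3 counts, the level that a count of 0 allows, corresponded to 0.149 to 0.225 CPM (counts divided by the library size, itself scaled by TMM factors), for counting error only. The mean fragment length implied by the deposited effective lengths was 261 to 271 nt in 5 libraries and 301 nt in mLN replicate 2. The cells carried the transcripts that mark naive CD4+ T cells in every library: 8 markers, among them Cd3e and Cd4, summed to 5670 to 5911 CPM in spleen and 5364 to 5490 CPM in mLN, of which 3 were higher and 3 lower in mLN. Markers of B cells, monocytes and macrophages, neutrophils and dendritic cells were more abundant in the spleen libraries. B cell markers summed to 581 to 621 CPM in spleen and 359 to 389 CPM in mLN, with 7 of 8 lower in mLN. Most of that sum was Ighm (mean 487 against 339 CPM), and the other 7 markers summed to 113 to 122 CPM in spleen and 25.9 to 33.7 CPM in mLN. Monocyte and macrophage markers summed to 46.7 to 49.8 against 15.1 to 15.9 CPM with 4 of 7 tested lower, neutrophil markers to 31.5 to 37.7 against 0.150 to 1.24 CPM with 5 of 5 tested lower, and dendritic cell markers to 5.23 to 8.48 against 0.750 to 1.17 CPM with 2 of 3 tested lower. Among the neutrophil markers Elane was at 0 in every library, Mpo in every spleen library and Retnlg in every mLN library. Of the dendritic cell markers, Flt3 and Clec9a were at 0 in every mLN library and Xcr1 in every spleen library. The stromal and endothelial list had 2 of 2 tested lower. The NK list summed to 43.7 to 48.7 CPM in spleen and 56.3 to 68.5 CPM in mLN, with 1 of 3 tested higher (Prf1). Most of that sum was Prf1 (mean 43.7 against 59.8 CPM). Nkg7 and Gzma, also tested, had log2 fold changes of -0.90 and -1.30 and were not called. None of the 2 plasmacytoid dendritic cell, 2 CD8 T and 1 platelet markers tested was called (edgeR), and no erythroid marker was abundant enough to test. Over all genes the difference between organs also followed transcript length. Its median log2 value was -0.36 in the shortest of 5 length classes (1421 genes) and 0.21 in the longest (2231 genes).

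The family occupies 681 kb of chromosome 1 (GENCODE vM21, mm10), between Aim2 at its start and Ifi205 at its end. The members lie in the order Ifi206 (173468485 to 173491041, minus strand), Ifi214 (173519717 to 173535957, minus), Ifi213 (173566283 to 173599274, minus), Ifi209 (173630917 to 173647928, plus), Ifi208 (173673675 to 173698395, plus), Mndal (173849126 to 173880881, minus, over the transcripts listed in the data) and Ifi203 (173920407 to 173942672, minus). All 7 are annotated as protein-coding. The annotated Mndal gene runs on to 173942491 and so spans Ifi211 and overlaps 22085 of the 22266 bp of Ifi203. The 9 Mndal transcripts that were quantified end before either gene, however, and the quantified transcripts of the family's genes shared no exon base. The genes interleave with 6 annotated pseudogenes, of which 2 had reads: Ifi203-ps, a copy of Ifi203, at 32.5 to 98.4 expected counts per library, and Gm18752 at 7 to 23.3. The other 4 were at 0 in every library.

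Because the genes are copies, reads can match several of them. All 7 members had expected counts that were not whole (by over 0.005) in every library, which RSEM gives where it divides reads among genes, against 12.97% of all 12486 genes tested. The overlap was measured as the share of a gene's 31-base transcript words that recur in another gene, over the transcripts quantified. Ifi209 and Ifi214 shared 1651 words, 46.8% of those of Ifi209 and 20.4% of those of Ifi214, with an identical run of 330 nt that is longer than the mean fragment of any library. Ifi208 and Ifi213 shared 1614 words, 30.7% and 23.3% of theirs, and Ifi206 shared 16.2% of its words with Ifi208 and 16.8% with Ifi213. Ifi206 also shared 14.5% with the pseudogene Gm18752. Ifi203 shared 15.9% of its words with Ifi203-ps and 4.71% with Mndal. Mndal shared 11.9% of its words with Ifi211, 10.4% with Ifi205 and 8.77% with Ifi203. The words found in 1 gene alone made up 52.8% of the total for Ifi209, 63.6% for Ifi206, 66.0% for Ifi208, 71.3% for Mndal, 73.5% for Ifi213, 78.4% for Ifi203 and 79.5% for Ifi214. The members thus form 3 groups of close copies in transcript sequence, Ifi209 with Ifi214, Ifi208 with Ifi213 and Ifi206, and, more loosely, Ifi203 with Mndal. Ifi203 and Mndal each shared more words with a gene outside the members than with one another. Values within a group are not independent of one another where reads were divided.

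**Figure D1:**
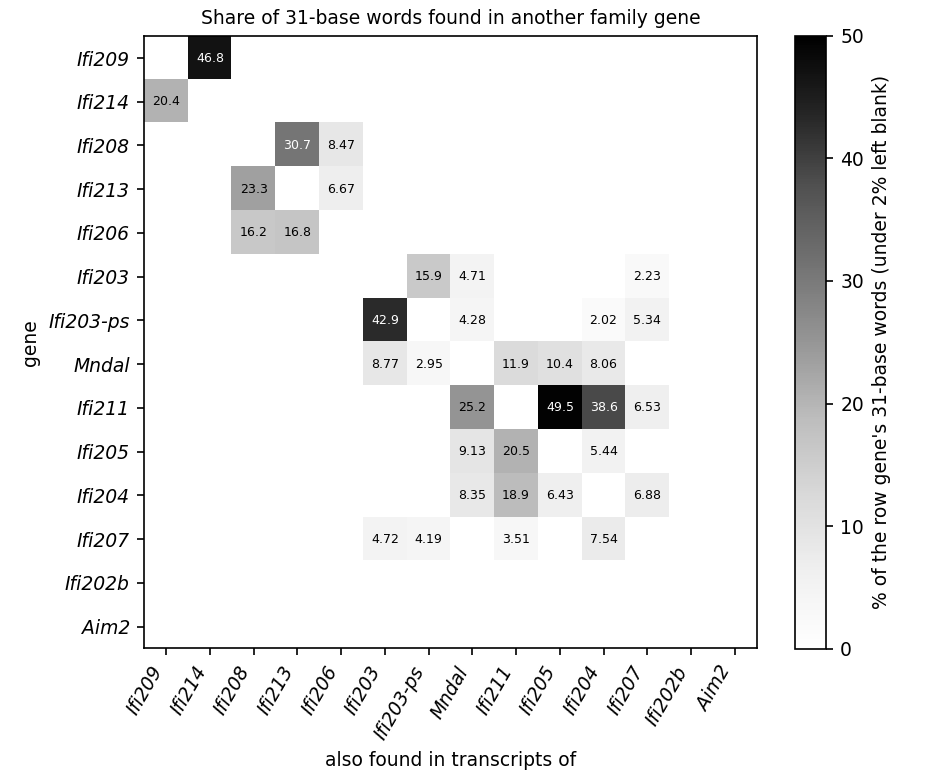
Share of each gene's 31-base transcript words (rows, percent) that also occur in transcripts of another gene of the family (columns), with shares under 2% left blank. The 2 blocks at the upper left are Ifi209 with Ifi214 (46.8% and 20.4%) and Ifi208 with Ifi213 and Ifi206, and no block joins these genes to Ifi203 and Mndal.

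The same 3 groups appear in the promoters. RefSeq promoter windows (GRCm38.p6, from 250 bases before to 50 bases after the start) were found for all 7 members, 9 windows in all. Of the 300-base windows, Ifi209 and Ifi214 were 95.7% identical over 300 aligned columns, Ifi208 and Ifi213 98.9% over 285, Ifi206 and Ifi208 98.9% over 282, and Ifi203 and Mndal 94.3% over 299, while between groups the best local alignments covered at most 145 columns. The upstream 250 bases of Ifi209 (plus strand, chr1:173630609-173630858), Ifi214 (minus strand, chr1:173535958-173536207), Ifi208 (plus strand, chr1:173673415-173673664) and Ifi203 (minus strand, chr1:173942493-173942742) are shown 5′ to 3′ because the mLN to spleen comparison separates the first pair from the others. Capitals mark matches to the core of the interferon-stimulated response element (ISRE), the site bound by interferon-activated STAT and IRF factors, searched as GAAA, any 2 bases and GAAA again, and to the TATA box letters TATAAA, each on both strands.
Ifi209: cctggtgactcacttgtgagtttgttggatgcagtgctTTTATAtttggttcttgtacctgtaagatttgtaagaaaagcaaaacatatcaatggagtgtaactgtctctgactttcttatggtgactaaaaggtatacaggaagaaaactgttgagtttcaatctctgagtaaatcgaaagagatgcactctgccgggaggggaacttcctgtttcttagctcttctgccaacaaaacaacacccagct
Ifi214: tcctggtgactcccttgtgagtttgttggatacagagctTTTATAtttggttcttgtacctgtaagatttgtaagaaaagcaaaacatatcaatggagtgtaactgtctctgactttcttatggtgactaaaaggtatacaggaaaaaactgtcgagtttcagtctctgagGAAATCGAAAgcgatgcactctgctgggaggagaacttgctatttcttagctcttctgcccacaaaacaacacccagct
Ifi208: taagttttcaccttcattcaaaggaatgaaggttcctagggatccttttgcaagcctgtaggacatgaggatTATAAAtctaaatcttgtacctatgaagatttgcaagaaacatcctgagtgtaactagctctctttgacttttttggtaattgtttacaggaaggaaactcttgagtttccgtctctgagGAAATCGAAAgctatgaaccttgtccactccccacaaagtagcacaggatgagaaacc
Ifi203: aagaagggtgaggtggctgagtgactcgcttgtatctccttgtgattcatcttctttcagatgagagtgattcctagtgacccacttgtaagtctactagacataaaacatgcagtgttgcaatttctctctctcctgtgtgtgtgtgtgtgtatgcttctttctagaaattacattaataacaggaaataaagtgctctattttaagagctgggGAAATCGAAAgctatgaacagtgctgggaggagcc
The ISRE core occurred in a window of 6 of the 7 members, all but Ifi209. Of the 32851 promoter windows of the same length, each counted singly, 3.44% held it. Each of these 6 members carried the same 10 letters, with TC in the middle, on the sense strand. Ifi203 and Mndal had 2 windows each. The other Mndal window held a further match on the opposite strand, and the other Ifi203 window held none. For these 2 genes the window with the 10 letters was the one aligned above. The bases around the core follow for every member, with the 10 core letters, or for Ifi209 the 10 letters aligned to the core of Ifi214, in capitals.
Ifi209: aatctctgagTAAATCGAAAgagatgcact
Ifi214: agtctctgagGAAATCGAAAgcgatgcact
Ifi208: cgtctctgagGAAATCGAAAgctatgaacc
Ifi206: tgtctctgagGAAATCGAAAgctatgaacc
Ifi213: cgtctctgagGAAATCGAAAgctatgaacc
Ifi203: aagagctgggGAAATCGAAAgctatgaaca
Mndal: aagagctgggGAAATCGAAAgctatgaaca
Counted from 1 at the 5′ end of the core, Ifi209 differed from Ifi214 by G1T. The core lay 79 bases before the start in Ifi214, 58 in Ifi208, 40 in Ifi206, 73 in Ifi213, 35 in Ifi203 and 36 in Mndal (first base). The TATA letters were found in Ifi206, Ifi208 and Ifi213 on the sense strand and in Ifi209 and Ifi214 on the opposite strand. They began 160 to 212 bases before the start, and 13.6% of all windows held them. The STAT element TTC, any 3 bases and GAA, found in 8.30% of all windows, matched no member window. These are matches of letters, not measured sites.

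Transcript levels were compared between genes on the TPM scale, which divides by transcript length. Mndal, whose protein resembles the human myeloid nuclear differentiation antigen, was the highest member at 309 ± 7.53 TPM in spleen and 344 ± 27.1 TPM in mLN (SD, n = 3 each). Its level exceeded that of 97.5% of the genes tested. Ifi203, which encodes a nuclear HIN-200 protein, followed at 218 ± 17.99 and 244 ± 20.1 TPM, and Ifi209, the gene formerly named Pyhin1, at 92.6 ± 5.56 and 84.8 ± 10.2 TPM. Ifi208 stood at 43.8 ± 2.17 and 53.0 ± 3.15 TPM, Ifi214 at 34.6 ± 4.20 and 31.6 ± 5.03 TPM, Ifi206 at 9.73 ± 0.703 and 10.7 ± 1.87 TPM, and Ifi213 at 2.71 ± 0.248 and 2.97 ± 0.193 TPM. Neighbours in this order did not overlap over the 6 libraries, the closest being Ifi208 (lowest library 41.9 TPM) and Ifi214 (highest library 39.4 TPM). The order was the same in all 6 libraries. Ifi203 had more counts than Mndal, 1.90 to 2.09 times as many per library, over a transcript of 3142 nt on average against 1287 nt. Ifi203 and Mndal together made up 73.5 to 75.2% of the members' TPM in spleen and 75.6 to 76.9% in mLN.

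**Figure D2:**
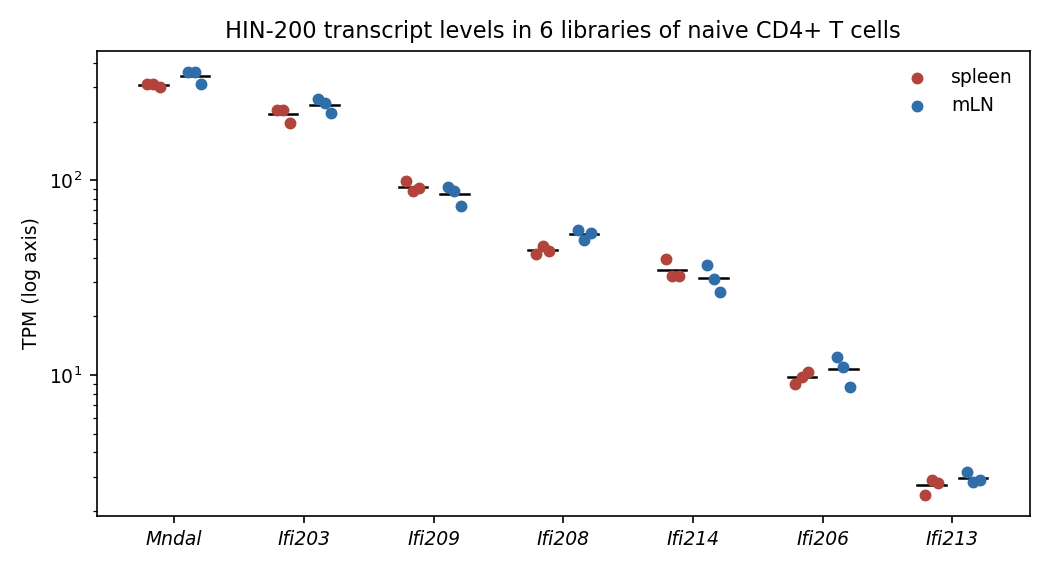
TPM (log axis) of the 7 members in each of the 3 spleen and 3 mLN libraries, with horizontal lines at the group means. The order from Mndal to Ifi213 holds in every library, and the differences between organs are small beside those between genes.

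The comparison of the organs asks whether these interferon-inducible genes are expressed differently by naive cells of the gut-draining nodes and of the spleen. Ifi209 and Ifi214 were lower in mLN, to 0.757 and 0.755 of the spleen level, and the other 5 members did not pass the test. By edgeR's quasi-likelihood test (p adjusted by Benjamini-Hochberg across the 12486 genes tested), 2 of the 7 members were lower (28.6%), where 13.5% of all genes tested were lower, and 0 were higher, where 16.1% of all genes were higher and 29.6% were called in either direction. DESeq2 and limma-voom also called 2 members lower and 0 higher. Of all 12486 genes, DESeq2 called 1749 lower and 2002 higher, and limma-voom 1712 lower and 2035 higher. No further member passed at an unadjusted p under 0.05, a cut-off for which the share of all genes was not counted. The median log2 fold change of the members was -0.12, against -0.01 for all genes tested. All 7 members passed the filter on low counts. CPM values of the organs did not overlap for 3 of the 7 (42.9%), where 41.8% of all genes had no overlap. All 3 were lower in mLN, as were 20.3% of all genes, and 0 were higher without overlap, against 21.5%.

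Ifi209 read 163, 156 and 159 CPM in spleen replicates 1, 2 and 3 and 127, 123 and 112 CPM in mLN replicates 1, 2 and 3. Every mLN library lay below every spleen library. The means were 159.5 ± 3.62 and 121 ± 7.63 CPM (SD over 3 libraries each). The log2 fold change was -0.40 (standard error 0.0723, edgeR adjusted p = 2.20e-04). Ifi214, its closest copy, read 54.4, 47.3 and 48.7 CPM in spleen and 43.3, 38.2 and 32.1 CPM in mLN. Again the groups did not overlap, with mLN replicate 3 the lowest library for both genes. The means were 50.1 ± 3.76 and 37.9 ± 5.61 CPM (SD over 3 libraries each), and the log2 fold change was -0.41 (standard error 0.114, edgeR adjusted p = 0.00952). The call of Ifi214 was lost without spleen replicate 1 (adjusted p = 0.0531) and without mLN replicate 3 (adjusted p = 0.0503), while that of Ifi209 held with each of the 6 libraries left out in turn (edgeR adjusted p from 3.42e-04 to 0.00177). With the trend on transcript length removed, both remained lower, Ifi209 with a log2 value of -0.38 (edgeR adjusted p = 5.60e-04) and Ifi214 with -0.35 (edgeR adjusted p = 0.0324).

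Since RSEM may divide the reads of this pair in different ways, their sum was also taken. It was 218, 203 and 208 CPM in the spleen libraries and 170, 161 and 144 CPM in the mLN libraries. Since neither gene overlapped between the organs by itself, their sum could not overlap either. The ratio of Ifi209 to Ifi214 counts was 3.19 ± 0.166 in spleen and 3.22 ± 0.281 in mLN (SD over 3 libraries each), and its ranges in the organs overlapped. In bulk RNA, fewer cells expressing a gene and less RNA per cell cannot be told apart. The B cell, monocyte and macrophage, neutrophil and dendritic cell markers given above were lower in the same mLN libraries, and their part in the difference was not tested.

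**Figure D3:**
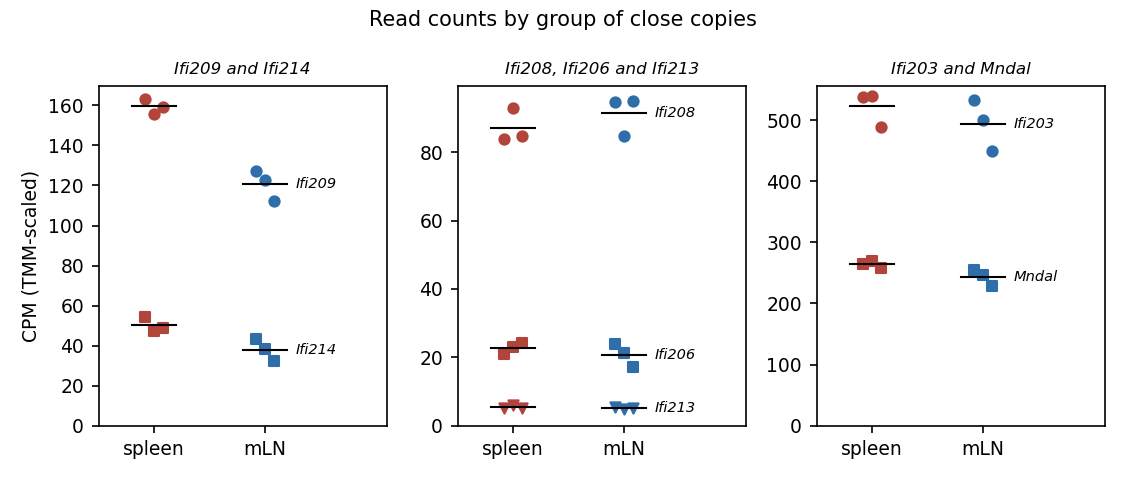
CPM of each library (points, 3 per organ, axis from 0) and group means (lines), with members drawn by their groups of close copies. Both genes of the left panel, Ifi209 and Ifi214, have all mLN libraries below all spleen libraries, whereas Ifi208, Ifi206, Ifi213 and Ifi203 overlap between organs and Mndal separates narrowly (lowest spleen library 257, highest mLN library 255 CPM).

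The second group of copies did not pass the test. Ifi208, whose RefSeq synonym Pydc3 names it a pyrin domain-containing gene, read 83.8, 92.9 and 84.6 CPM in spleen and 94.9, 84.9 and 94.9 CPM in mLN. The groups overlapped, and the log2 fold change was 0.07 (standard error 0.0838, edgeR adjusted p = 0.573). Ifi206 read 20.8, 22.9 and 24.2 CPM in spleen and 24.04, 21.3 and 17.1 CPM in mLN. Its mLN libraries spread from the second highest of the 6 to the lowest, and its log2 fold change was -0.13 (standard error 0.146, edgeR adjusted p = 0.566). Ifi213, with the synonym Pydc4, was the rarest member, at 66 to 106 counts per library. It read 5.09, 6.01 and 5.29 CPM in spleen and 5.52, 4.95 and 5.15 CPM in mLN, a log2 fold change of -0.07 (standard error 0.258, edgeR adjusted p = 0.873). A log2 difference of the size seen for Ifi209 is less than 2 of the standard errors of Ifi213, so a like change of Ifi213 was not detectable at this depth.

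The most abundant pair, Ifi203 and Mndal, differed little. Ifi203 read 538, 540 and 489 CPM in spleen and 533, 500 and 449 CPM in mLN, a log2 fold change of -0.08 (standard error 0.0653, edgeR adjusted p = 0.389). Its groups overlapped. Mndal read 265, 270 and 257 CPM in spleen and 255, 246 and 228 CPM in mLN. The groups did not overlap, but the lowest spleen and highest mLN libraries were close, and Mndal did not pass the test (log2 fold change -0.12, standard error 0.0625, edgeR adjusted p = 0.159). It passed with upper-quartile scaling (log2 fold change -0.17, edgeR adjusted p = 0.0464), and its sign turned with the trend on transcript length removed (0.057, edgeR adjusted p = 0.588).

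The 7 members summed to 1112 ± 37.4 CPM (spleen) and 1013 ± 71.7 CPM (mLN; SD over 3 libraries each), with overlapping ranges of 1068 to 1135 and 939 to 1082 CPM. Ratios between members within a library do not depend on how libraries are scaled. The ratio of Ifi208 to Ifi209 counts was 0.514, 0.595 and 0.531 in spleen and 0.746, 0.691 and 0.845 in mLN. The ratio of Ifi203 to Ifi209 was 3.28 ± 0.201 in spleen and 4.09 ± 0.0957 in mLN, and that of Mndal to Ifi209 was 1.66 ± 0.0654 and 2.01 ± 0.0177 (SD over 3 libraries each). In each of these 3 ratios the organs did not overlap, Ifi209 being lower relative to the other gene in every mLN library. Lack of overlap was not particular to ratios with Ifi209. The ratio of Ifi208 to Ifi214 was 1.54 to 1.97 in spleen and 2.19 to 2.96 in mLN. That of Ifi208 to its copy Ifi213 was 15.4 to 16.6 in spleen and 17.3 to 18.5 in mLN. The ratios of Ifi203 to Mndal and of Ifi209 to Ifi214 overlapped. As a share of the members' TPM, Ifi209 made up 12.2 to 13.5% in spleen and 10.5 to 11.3% in mLN, and it was the only one of the 7 members whose share did not overlap between the organs. These ratios and shares were chosen after the members' values were seen and are given without a test.

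The scale of the values changed the sign of 4 members. On the deposited TPM values, tested with limma on log2(TPM + 1), the median of all genes tested was shifted by 0.21 towards mLN, and 2757 genes were higher and 384 lower in mLN, against 2010 and 1689 on counts. On this scale the members' median was 0.12 and 0 of 7 were called. Ifi209 and Ifi214 kept their sign, with differences of -0.13 each (adjusted p = 0.408 and 0.552), while Ifi203, Ifi206, Ifi213 and Mndal turned to 0.16, 0.12, 0.10 and 0.15. Ifi208 reached 0.27 (adjusted p = 0.0679), with 41.9, 46.2 and 43.5 TPM in spleen and 55.6, 49.5 and 53.8 TPM in mLN. It was the only member whose TPM did not overlap between organs, where 41.3% of all genes tested had no overlap and 35.1% were higher in mLN without overlap. With each library centred on its median, Ifi209 was called lower (-0.38, adjusted p = 0.0453), Ifi214 was not (-0.38, adjusted p = 0.116) and Ifi208 was at 0.02.

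**Figure D4:**
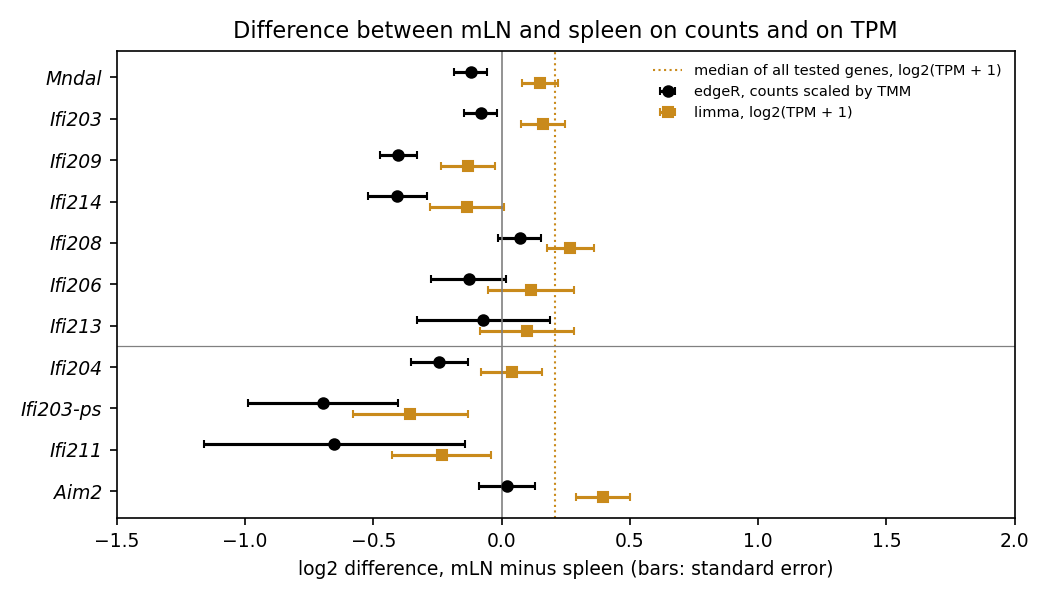
Log2 difference between mLN and spleen with its standard error for the 7 members (above the line) and 4 other family genes (below), on counts (black circles) and on log2(TPM + 1) (squares). The squares sit to the right of the circles for every gene, as does the median of all genes tested (dotted line at 0.21), and Ifi209 and Ifi214 are the 2 members below 0 on both scales.

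**Figure D5:**
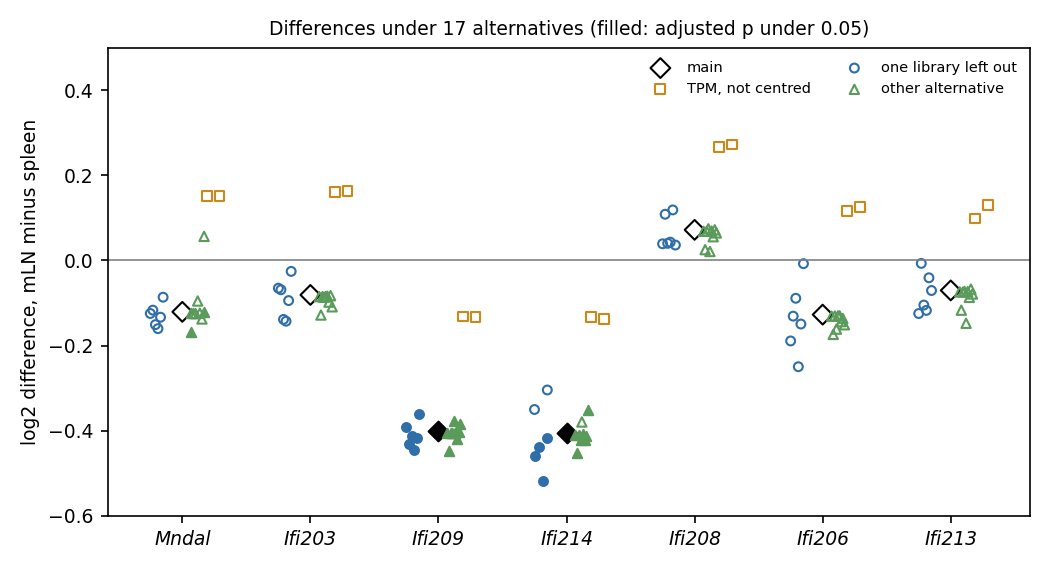
Log2 difference between mLN and spleen of each member in the main test (diamonds) and under 17 alternatives, filled where the adjusted p was under 0.05. Ifi209 and Ifi214 are below 0 and Ifi208 above 0 throughout, and the remaining 4 members lie on both sides of 0.

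Other genes of the family were read beside the members. Aim2, the DNA sensor that assembles an inflammasome, shared no 31-base word with another family gene and had whole counts in every library. It stood at 48.6 ± 4.01 CPM (spleen) and 49.3 ± 7.09 CPM (mLN; log2 fold change 0.02, standard error 0.110, edgeR adjusted p = 0.913). On log2 TPM Aim2 was called higher (0.40, limma adjusted p = 0.0285), but not with each library centred on its median (0.15, limma adjusted p = 0.368). Ifi204, which encodes a DNA-binding sensor related to human IFI16, stood at 42.2 ± 5.14 and 35.8 ± 0.798 CPM (log2 fold change -0.24, edgeR adjusted p = 0.107). Its sign turned on log2 TPM (0.039). The pseudogene Ifi203-ps stood at 6.10 ± 0.540 and 3.72 ± 1.12 CPM (log2 fold change -0.70, standard error 0.292, edgeR adjusted p = 0.0787), and Ifi211, of whose words only 21.1% are its own, at 2.05 ± 0.130 and 1.29 ± 0.370 CPM (edgeR adjusted p = 0.371). The remaining genes were too rare to be tested. Ifi207 had 10, 16 and 4 counts in the spleen libraries and 0, 0 and 1 in the mLN libraries, Ifi202b, an inhibitor of Aim2, had 11, 6 and 1 against 2, 0 and 0, and Ifi205 had 4, 5 and 0 against 0 in each mLN library. Their few reads lie mostly in the spleen libraries, as do those of the neutrophil and macrophage markers, and the part of other cells in them was not tested.

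Genes that carry the interferon signal to this family were also read. Of 15 genes of interferon receptors, kinases, STAT and IRF factors and feedback inhibitors, 6 were higher and 2 lower in mLN (edgeR; median log2 fold change 0.12, against -0.01 for all genes), where 16.1% of all genes tested were higher and 13.5% lower. Irf7, which amplifies type I interferon responses, rose 1.48-fold (adjusted p = 9.09e-05), Irf2, which competes at interferon response elements, 1.34-fold (adjusted p = 3.08e-04), and Stat2, a subunit of the factor that binds the ISRE, 1.25-fold (adjusted p = 0.00674). Ifngr1, the ligand-binding chain of the interferon-gamma receptor, fell to 0.672 of its spleen level (adjusted p = 8.34e-06). These 4 kept their direction and their call on log2 TPM (limma adjusted p from 0.00299 to 0.0462). That scale moves the median of all genes by 0.21 towards mLN, so a call of higher is easier to keep there than a call of lower. The differences on it were 0.82 for Irf7, 0.79 for Irf2, 0.55 for Stat2 and -0.33 for Ifngr1. Of 10 tested genes that act with the family's sensors, 1 was higher and 3 lower (median log2 fold change -0.13). Of all genes tested, 16.1% were higher and 13.5% lower, and 29.6% were called in either direction. Pycard, the inflammasome adaptor whose pyrin domain meets that of Aim2, stood at 0.734 of its spleen level (adjusted p = 8.59e-04), Tmem173, which encodes the adaptor STING, at 0.847 (adjusted p = 0.0120), and the cytokine gene Il1b at 0.0368 (mean 7.61 CPM against 0.252 CPM, adjusted p = 2.51e-07). Zbp1, a sensor of left-handed nucleic acids, rose 1.29-fold (adjusted p = 0.00178). On log2 TPM the sign of Tmem173 turned (0.061, limma adjusted p = 0.694) and the call of Pycard was lost (-0.32, limma adjusted p = 0.110), while Il1b and Zbp1 kept their direction and their call (limma adjusted p = 6.23e-04 and 0.0128). Myeloid cells also express Pycard and Il1b; the markers of those cells given above were lower in the same libraries, and their part was not tested.

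The genes whose pattern over the 6 libraries was most like that of the 3 most abundant members were named from 8695 named protein-coding genes at 5 CPM or more, by Pearson's r of log2 CPM. With so many candidates and 6 libraries high values arise easily, and they are given as a description. For Mndal they were Ntmt1, Cd200 and Hsf2 (r = 0.996, 0.993 and 0.993), for Ifi203 Xlr4a, Fbxl5 and Ubxn8 (0.997, 0.984 and 0.981), and for Ifi209 Ube2b, Arrdc3 and Klhl24 (0.998, 0.998 and 0.996). Among the members themselves r was 0.945 between Ifi209 and Ifi214, 0.924 between Ifi214 and Mndal, 0.893 between Ifi203 and Mndal, and -0.52 between Ifi208 and Ifi209, over the same 6 libraries, which share their scaling factors.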

How the data were processed

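RNA was sequenced from 3 spleen and 3 mLN libraries of naive CD4+ T cells. Per the submitters' processing notes the tools were STAR and RSEM and the build mm10. Versions, annotation release and strand setting: not given in the sources used here. Per the file headers, each gene has an expected count, an estimate that need not be whole, and a TPM value, which the authors' RSEM run scaled by effective length. Symbols were found for 55141 of 55487 identifiers.

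Expected counts were rounded, filtered with filterByExpr (12486 genes left), scaled by TMM factors and tested with edgeR's quasi-likelihood F test (two-sided, robust, organ as the only term, Benjamini-Hochberg threshold 0.05). Standard errors were obtained by dividing the absolute log2 fold change by the root of the F statistic. TPM was tested with limma on log2(TPM + 1). No test was run over the members as a list. Over the genes tested, replicate pairs differed by more than sampling noise (chi-square per degree of freedom 5.60 to 12.1). For the members alone the value was 0.886 to 6.61, lowest between mLN replicates 1 and 2. Transcript words came from GENCODE vM21 and promoters from RefSeq GRCm38.p6. The gene test was tested on simulated data. Versions were edgeR 4.0.16, DESeq2 1.42.0 and limma 3.58.1 in R 4.3.3, with Python 3.11.15 and matplotlib 3.10.9 for sequences and plots.

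The members and gene lists were chosen with earlier results of these data known. The genes named are the 7 members, the other family genes, up to 4 genes of smallest p from the lists of interferon signalling and sensor partners, and 3 genes of like pattern for each of the 3 most abundant members. The alternatives were upper-quartile and RLE factors, limma-voom, DESeq2, log2 TPM with pseudocounts 1 and 0.1 and centred, no filter and a stricter filter (30 counts), the replicate block, removal of the trend with transcript length, the stricter threshold 0.01, and leaving out libraries in turn.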

Additional observations from a re-analysis of the deposited data

How the results depend on the processing

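Ifi209 and Ifi214 were below 0 and Ifi208 above 0 under all 17 alternatives that refit the data, with ranges of -0.45 to -0.13, -0.52 to -0.13 and 0.02 to 0.27. No member was called higher under any of them. The count of members called lower, 2 in the main test, was 0 on log2(TPM + 1) and on log2(TPM + 0.1), 1 on median-centred log2 TPM and 1 to 2 with a library left out; it was 1 without spleen replicate 1 and without mLN replicate 3. Over all genes, log2 TPM with pseudocounts 1 and 0.1 called 384 and 389 lower, centred log2 TPM called 798 higher and 947 lower, and the 0.01 threshold called 1069 lower. Signs turned on log2 TPM with pseudocounts 1 and 0.1 for Ifi203 (0.16, 0.16), Ifi206 (0.12, 0.13), Ifi213 (0.10, 0.13), Mndal (0.15, 0.15) and Ifi204 (0.039, 0.041), and for Mndal with the length trend removed (0.057). Aim2 turned with upper-quartile factors (-0.026) and without spleen replicate 2 (-0.055) or mLN replicate 1 (-0.10). Apart from the shift of all genes on the TPM scale, the cause was not tested. With the replicate number as a block, 3 members were lower, Mndal being added (log2 fold change -0.12, adjusted p = 0.0203), Ifi203-ps was called (adjusted p = 0.0461), and 2566 genes were higher and 2139 lower; same-numbered libraries correlated at 0.0548, 0.0205 and 0.104 in their deviations, so the numbers do not establish pairs, although every library correlated best with its own number. Depth limits Ifi213, Ifi211 and the untested family genes.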
